A study of Mus musculus with 19 samples.

Results

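Nanopore sequencing of native RNA was compared with that of direct cDNA in wild-type (WT) mouse neural progenitor cells, the dividing cells of the embryonic cortex from which neurons and glia arise. The comparison took 4 of the 19 samples of the study, namely 2 native RNA and 2 direct cDNA samples of WT cells, chosen by their labelled genotype and sequencing technology. The files pool both samples of a chemistry into 1 assembly, so no spread between replicates could be measured and no test was possible. The same contrast in 2 native RNA and 2 direct cDNA samples labelled Mettl14 conditional knockout (KO) served as a repeat in other samples. Cells of both genotypes came from embryonic cortices and were grown on Matrigel in Neurobasal medium that contained heparin, B27, 20 ng/ml of FGF2 and 20 ng/ml of EGF. The direct cDNA libraries started from 1.5 µg of total RNA with 0.1 ng of a SIRV spike-in control. The labels give no strain, age, Cre driver or count of separate cultures.

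In native RNA sequencing the RNA strand itself passes through the pore, starting from an adapter ligated at its poly(A) tail, so reads run from the 3′ end towards the 5′ end. In direct cDNA sequencing the RNA is first copied by a reverse transcriptase from an oligo-dT primer, and the cDNA is read without PCR. Neither chemistry breaks the RNA into fragments, so a read can hold a whole transcript with all its splice junctions. StringTie and FLAIR turn such reads into transcript models with exons and introns. The ordered set of intron ends of a model is called its intron chain here.

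The WT StringTie assemblies had 20979 transcripts for native RNA and 57876 for direct cDNA. Their read coverage summed to 1688 and 7923 Mb, of which 1373 and 1823 Mb lay in transcripts that held an intron of the GENCODE M21 annotation. Of the 22 radial glia and neural progenitor markers, 20 were at 1 TPM or more in native RNA and 21 in direct cDNA, after the rescaling described with the gene levels. Genes of other neural lineages reached that level too. In native RNA and direct cDNA these were 9 and 14 of 18 neuronal, 7 and 10 of 14 oligodendrocyte lineage and 10 and 12 of 12 astrocyte genes. No marker of microglia, of endothelial and mural cells or of meningeal fibroblasts reached 1 TPM in either WT assembly, and 3 of 8 erythroid markers did in direct cDNA. Mettl14, which pairs with Mettl3 in the enzyme that writes m6A into mRNA, was at 23.2 TPM in native RNA and 31.1 in direct cDNA of WT, and at 16.5 and 25.4 in the assemblies labelled KO. The deleted exons are not given in the labels, so these levels do not check the genotype. The FLAIR files for native RNA of WT and KO shared 12342 transcripts named after the same read, 89.9% of such transcripts in the WT file. The FLAIR files for direct cDNA shared 0, so FLAIR is given as a check in WT, and whether its native RNA file holds reads of both genotypes was not tested.

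FLAIR models of direct cDNA more often ended inside an annotated transcript at a place followed by A-rich sequence, which StringTie models did not show. Shown here are 6 such ends in coding sequence, those of the most abundant genes in direct cDNA, because the bases after them carry this difference. Each sequence is the 20 bases of the GENCODE M21 transcript (GRCm38) just downstream of the end of a FLAIR model, 5′ to 3′ on the transcript's strand, with A in capitals.
Psip1, chromosome 4, end at 83465044, minus strand: AAgAAccAgAtAAgAAAgAA
Hsp90aa1, chromosome 12, end at 110694293, minus strand: gAAgAgAAAgAggAAgAgAA
Top2a, chromosome 11, end at 99002874, minus strand: AAAAtAAAcctAAAAAAgAA
Ttc3, chromosome 16, end at 94451125, plus strand: AAAAAAttAAAAAggttAtc
Srsf11, chromosome 3, end at 158012780, minus strand: AcAtAAAAAAgAgAAgAAgA
Sec62, chromosome 3, end at 30810470, plus strand: gAAggAAActAAgAAAAAAt

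The Top2a model, from the gene of DNA topoisomerase II alpha, had 24 exons against 36 in the annotation and ended before a window with 15 A of 20 bases. The Psip1 model, from a gene of a chromatin reader, had 9 exons against 16, and its window held 13 A. The Hsp90aa1 model, from the gene of the stress-inducible HSP90 chaperone, had 4 exons against 11 in the annotation. These genes were read by both chemistries, with Hsp90aa1 at 318 TPM in native RNA and 357 in direct cDNA, yet no native RNA end in coding sequence was followed by such a window.

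Over all spliced FLAIR models that ended more than 100 bases before the annotated 3′ end, 248 of 4584 in direct cDNA (5.41%) were followed by 20 bases with 12 or more A. In native RNA these were 25 of 2948 (0.848%), close to the 0.996% of all such windows in annotated transcripts. Within coding sequence the count was 76 of 841 ends in direct cDNA (9.04%) and 0 of 70 in native RNA, which allows a share of up to 4.29%, while 0.632% of all coding windows qualified. Over all inner ends, the FLAIR file for direct cDNA of KO gave 4.28%. StringTie gave 0.692% in native RNA and 0.816% in direct cDNA over its spliced models.

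Direct cDNA gave far more models without a splice junction. Single-exon transcripts made up 18.3% of the native RNA assembly (95% exact binomial interval 17.8 to 18.8) and 45.6% of the direct cDNA assembly (45.2 to 46.0). The interval covers counting error only. The KO assemblies gave 20.6% and 45.0%. Of the single-exon transcripts in native RNA, 71.3% lay mostly in annotated exons. Another 12.1% lay mostly within annotated genes but not mostly in exons, and are called intronic here. In direct cDNA 14.0% lay mostly in exons and 72.5% were intronic, and 25622 of its 57876 transcripts had no strand, against 46 in native RNA.

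The excess was largest among models with few reads. At a mean coverage of 1 to 2, single-exon models made up 30.3% in native RNA and 68.0% in direct cDNA. At a coverage of 10 to 50 the shares were 9.34% and 9.42%, and at 50 or more 8.40% and 11.4%. The direct cDNA assembly had 36.1% of its transcripts in the lowest of these ranges, native RNA 13.8%. Intronic position still differed at matched coverage, since 5.55% of the single-exon native RNA transcripts at a coverage of 10 to 50 were intronic and 20.6% of those in direct cDNA.

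Spliced transcripts differed in their intron chains, at the 5′ side and elsewhere. Among multi-exon transcripts, 55.1% in native RNA and 40.3% in direct cDNA had exactly the intron chain of an annotated transcript. Chains that matched an annotated one except for missing introns at the 5′ side made up 18.2% in native RNA and 7.03% in direct cDNA. Chains lacking only 3′ introns were less frequent than these in both, at 2.41% and 5.15%, with the higher share in direct cDNA. Other chains with an annotated intron made up 20.9% in native RNA and 37.3% in direct cDNA. Chains with no annotated intron made up 1.92% and 8.19%. At a coverage of 10 to 50 the 5′-shortened chains were 20.2% of native RNA and 3.82% of direct cDNA transcripts, and in KO 23.4% and 3.69%. At a coverage of 50 or more they were 2.59% and 2.53%. FLAIR gave 13.3% and 5.30% over all its spliced models.

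Exons that ran through a whole annotated intron were found in 13.5% of the native RNA and 23.7% of the direct cDNA transcripts that held an annotated intron, and in 10.3% and 18.6% in KO. At a coverage of 10 to 50 these shares came to 9.26% and 11.4%. Among annotated chains, those that GENCODE lists as retained introns were 238 of 9447 in native RNA (2.52%) and 537 of 12707 in direct cDNA (4.23%). Protein-coding chains were 89.9% and 88.6%, and chains subject to nonsense-mediated decay 2.39% and 2.21%.

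**Figure D1:**
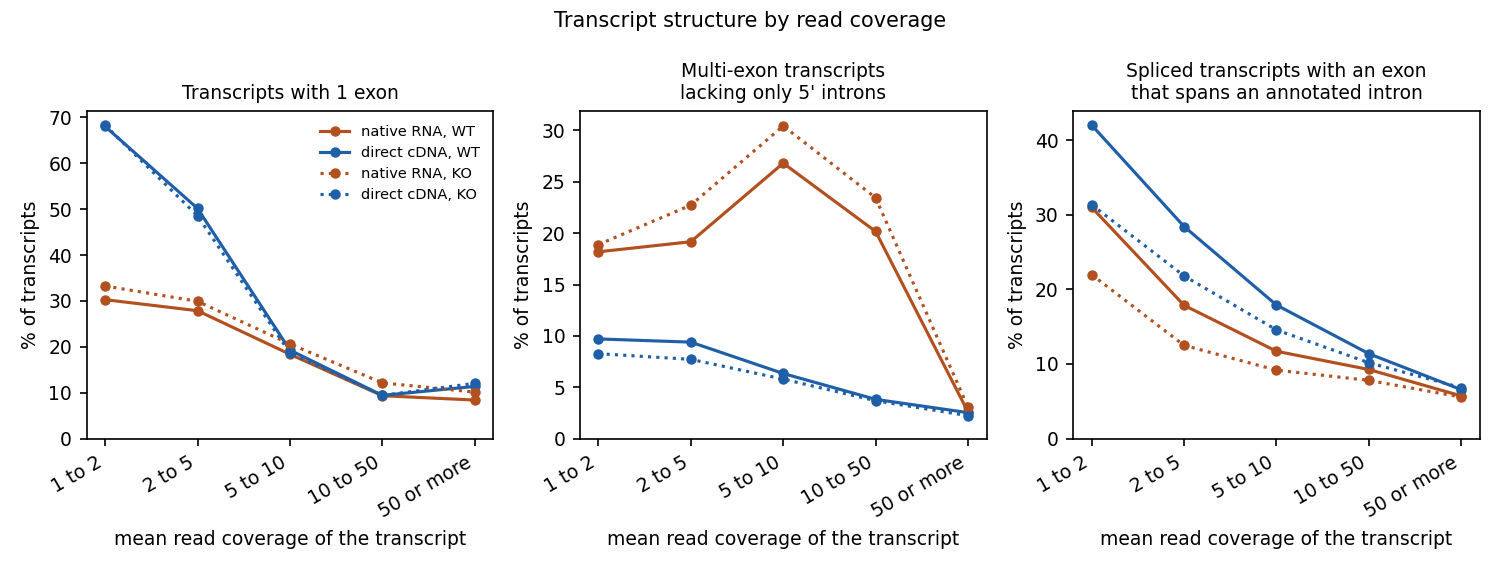
Share of StringTie transcripts (y axis, %) with 1 exon, lacking only 5′ introns, or with an exon spanning an annotated intron, by mean read coverage (x axis), for native RNA and direct cDNA of WT (solid) and KO (dotted). The chemistries meet in the single-exon panel at a coverage of 10 to 50 (9.34% and 9.42% in WT). At 50 or more the single-exon shares are 8.40% and 11.4% in WT. The 5′-shortened chains stay apart at a coverage of 10 to 50 (20.2% and 3.82%).

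Transcripts of up to 2 kb were recovered in close shares by both chemistries, and direct cDNA recovered more of the longer ones. The measure was whether the intron chain of an annotated transcript at 5 TPM or more on average in 3 standard short-read WT libraries was present in the assembly, over 9199 transcripts. Of these 56.5% were found in native RNA and 72.4% in direct cDNA. Of transcripts of 1 to 2 kb, 80.4% were found in native RNA (78.6 to 82.1) and 78.9% in direct cDNA (77.1 to 80.7). Here 89 were found in native RNA alone and 60 in direct cDNA alone, and under 1 kb 48 and 28. At 1 to 2 kb KO gave 89 and 107. FLAIR in WT gave 62 and 55 at 1 to 2 kb, and 41 and 42 under 1 kb. From 3 to 4 kb the shares were 57.9% and 79.6%. At 6 kb or more they were 159 of 992 in native RNA (16%) and 594 of 992 in direct cDNA (59.9%). In KO the shares over all lengths were 50.5% and 71.1%, and FLAIR in WT gave 62.6% and 74.5%. Of the 9199, 1771 were found in direct cDNA alone and 309 in native RNA alone. The direct cDNA assembly had more coverage in spliced transcripts, as given above, and the part of depth in this difference was not tested.

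**Figure D2:**
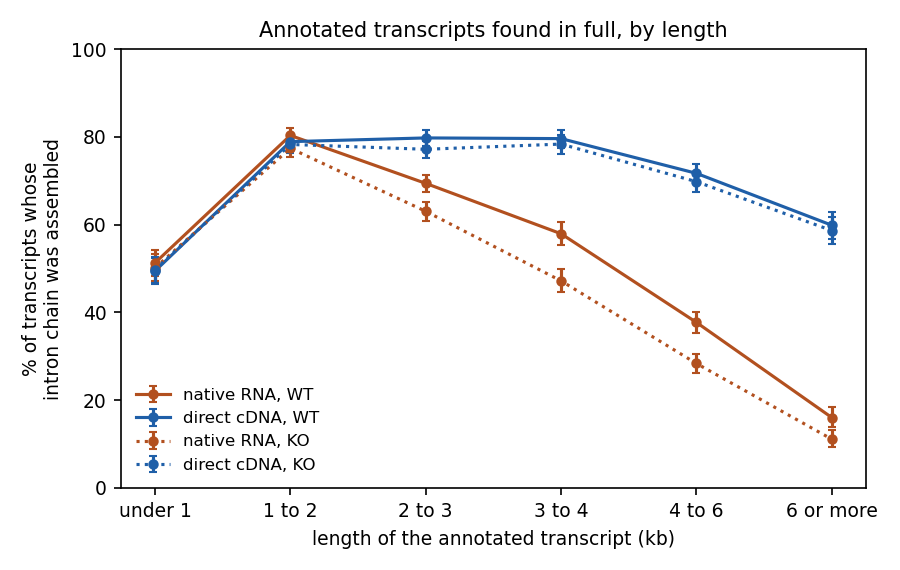
Share of annotated transcripts whose whole intron chain was assembled (y axis, %, bars are 95% exact binomial intervals) by annotated length in kb (x axis), in WT (solid) and KO (dotted). Native RNA falls from 80.4% at 1 to 2 kb to 16% at 6 kb or more in WT, direct cDNA from 78.9% to 59.9%.

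Intron chains were shared to a limited extent. The 9966 shared chains were 58.1% of the chains of native RNA and 31.6% of those of direct cDNA. Of the shared chains 79.9% were annotated, against 20.6% of the 7179 found in native RNA only and 22.0% of the 21533 found in direct cDNA only. Chains of 2 exons were the least shared in native RNA, at 45.9%. In direct cDNA, 16.2% of the chains of 2 exons and 13.7% of those of 21 exons or more were shared, against 39.9% for 6 to 10 exons. Transcripts with over 20% of their length outside annotated exons made up 11.5% of the chains found in native RNA only and 30.0% of those in direct cDNA only, counted over chains that hold an annotated intron.

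Where both chemistries gave the same chain, direct cDNA started further upstream in 75.9% of cases and native RNA in 20.8%, with a median gap of 16 bp (quartiles 1 and 47). The 3′ ends had a median gap of 0 bp (quartiles -2 and 4). KO gave 78.2% and 17 bp for the 5′ ends. FLAIR models gave a median gap of 0 bp at the 5′ end, with direct cDNA upstream in 39.4% and native RNA in 9.62%. Among all StringTie transcripts with an annotated chain, the median start was 11 bp downstream of the annotated start in native RNA. In direct cDNA it was 14 bp upstream. Starts within 50 bp of the annotated one made up 64.5% in native RNA and 57.4% in direct cDNA, and in FLAIR 61.1% and 67.2%.

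Of the chains found in native RNA only, 19.9% were also in the KO native RNA assembly and 16.8% in the KO direct cDNA assembly. Of those in direct cDNA only, 24.1% were in the KO direct cDNA assembly and 5.15% in the KO native RNA assembly. The most abundant chains that no assembly of the other chemistry held came from ribosomal protein genes in native RNA. Rplp0, a protein of the ribosomal stalk, had a native RNA chain at 4190 TPM that lacked a 5′ intron, with 6 exons against 7 in the annotation. Rps26 had a native RNA chain at 1269 TPM that GENCODE lists as a retained intron form, and Rpl11 a chain at 480 TPM listed as a processed transcript. These, with the chains of Rpl8, Rps7 and Rps21, made 6 of 6 that were also present in KO native RNA, but only the Rps7 chain was also a FLAIR model of native RNA.

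In direct cDNA the top chains found by that chemistry only belonged to Rps3, Actb, Eif1, Peak1, Rpl14 and Cst3. The Rps3 chain, at 178 TPM as deposited and a mean coverage of 2783, belonged to a model of 8 exons with 945 bases in all. That model spanned chromosome 7 from 99478802 to 99524734, and its chain was not an annotated one. The Actb chain, of the gene for cytoplasmic beta-actin, reached from 142903174 to 142969048 on chromosome 5 and was at 121 TPM. Of the 6 chains, 4 were also in KO direct cDNA, those of Actb, Eif1, Rpl14 and Cst3, and 0 were FLAIR models of direct cDNA.

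The deposited TPM values were not on 1 scale. In native RNA, transcripts with an annotated intron held 81.7% of all TPM, in direct cDNA 6.17%. In direct cDNA 8 transcripts held 50% of the TPM, in native RNA 353. Of the 63 direct cDNA transcripts at 1000 TPM or more, 0 had an annotated intron and 45 lay mostly outside annotated exons. A locus on chromosome 9 from 123387757 to 123493447, at Lars2, held 14.5% of the direct cDNA TPM, and a locus without an annotated gene on chromosome 11 from 109011638 to 109012133 held 9.98%. The native RNA transcripts at 1000 TPM or more included those of Eef1a1 (14218 TPM), a translation elongation factor, and Fabp7 (10092), a fatty acid binding protein of radial glia. Both the Lars2 locus and the chromosome 11 locus were also above 1000 TPM in KO direct cDNA.

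Gene levels were therefore summed over transcripts that hold an annotated intron of the gene and rescaled to 1000000 over such transcripts. With TPM as deposited, the median difference of all genes was 3.09 on the log2 scale in favour of native RNA. All levels below are on the rescaled scale unless called deposited, and differences are native RNA minus direct cDNA on log2(rescaled TPM + 1). A gene without introns has no level by this measure. Over 11016 genes at 5 TPM or more in either chemistry the median difference was -0.39, and 8470 genes (76.9%) lay within 2-fold of it. Spearman's rho across these genes was 0.857, and across 10708 genes with short-read targets it was 0.724 between native RNA and the short reads and 0.741 between direct cDNA and the short reads. Genes are not independent replicates, so no p is given.

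At 4-fold or more, 214 genes (1.94%) were higher in native RNA and 1138 (10.3%) in direct cDNA. KO gave 238 (2.25%) and 1427 (13.5%). Of the native RNA higher genes 23 passed 4-fold the same way in KO, and 523 of the direct cDNA higher genes. The other way round in KO were 12 and 7. Native RNA made up 15.8% of the genes past 4-fold here. That share was 21.4% with the median set to 0 25.4% with a minimum of 20 TPM and 6.37% by exon coverage, the median coverage of a transcript's exons. It was 89.9% when every transcript overlapping an exon was counted, and 30.3% when that count was also centred on its median.

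**Figure D3:**
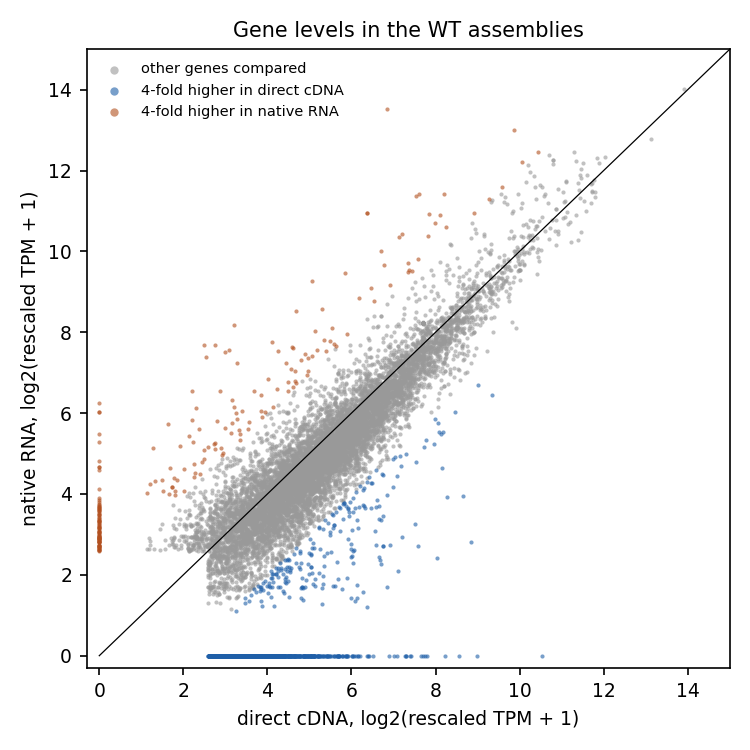
Gene levels in WT as log2(rescaled TPM + 1), native RNA (y axis) against direct cDNA (x axis), with 1 point per gene and genes past 4-fold in colour. The points along the bottom edge are the 922 genes listed at 0 in native RNA.

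Genes higher in direct cDNA had long transcripts and long last exons. Their median annotated length was 4348 bases and their median last exon 2721, against 2667 and 1055 over all genes compared. Of the 1138 genes, 922 were listed at 0 in native RNA, and for 697 of these (75.6%) the native RNA assembly held a single-exon transcript in the gene's last exon, against 8.92% of all genes compared. A gene at 0 in one chemistry had to pass 4-fold, since it was compared only if the other reached 5 TPM. Counting every transcript that overlaps an exon left 34 of the 1138 at 4-fold, or 86 after centring on the median. Those 697 genes thus had native RNA coverage that the level by introns does not count.

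The Nfia and Nfib genes, which encode nuclear factor I transcription factors of glial differentiation, are examples. Nfia (ENSMUSG00000028565.18, chromosome 4, 97772734 to 98118874, plus strand) was at 0 in native RNA and 220 TPM in direct cDNA in WT, and at 0 and 196 in KO. Native RNA held a single-exon Nfia transcript of 7659 bases at 22.2 deposited TPM in a last exon of 7654 bases. Short reads gave Nfia 82.0 ± 14.6 TPM (SD, n = 3). Nfib was at 0 and 216 TPM in WT and at 2.81 and 274 in KO, with a native RNA single-exon transcript at 60.7 deposited TPM. Both genes were chosen partly because they passed 4-fold in KO, so their KO levels are no support.

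Of the 12 most different named genes in this direction, 12 were at 0 in WT native RNA and 9 had such a single-exon transcript. Dpysl2, a regulator of axon growth, was at 207 TPM in direct cDNA and its native RNA single-exon transcript had 2575 bases. Dag1, the gene of dystroglycan, was at 136 TPM in direct cDNA, and its native RNA single-exon transcript of 4384 bases was at 62.5 deposited TPM. Vgll4, Hmgn5, Nptx1, Xylt1 and Slc7a1 showed the same arrangement, with direct cDNA levels from 63.4 to 157 TPM. Map3k15, Fbxl18 and Polr2a had none. Fbxl18 was at 167 TPM in WT direct cDNA, but at 11 in KO direct cDNA and 11.3 ± 1.64 in short reads (SD, n = 3). Its WT direct cDNA model had 15161 bases, 51.2% of them outside annotated exons. The mean coverage of that model was 142 reads, with 1969 in its best covered exon. Polr2a, the largest subunit of RNA polymerase II, was at 63.3 TPM in direct cDNA and 63.0 ± 14.3 in short reads (SD, n = 3), and Map3k15 at 503 TPM in direct cDNA but 1.91 ± 0.546 in short reads.

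The median difference fell with each step in the length of the last exon. This trend, and the gene class values after it, rest on the level by introns, which does not count single-exon transcripts. With a last exon under 500 bases, 145 of 2982 genes (4.86%) were 4-fold higher in direct cDNA and the median difference was -0.28. From 3 to 5 kb these were 315 of 1112 (28.3%), with a median of -0.70. At 5 kb or more they were 198 of 410 (48.3%), with a median of -1.89. In KO the last group had 54.7% and a median of -2.61. Among gene classes, lincRNAs had a median of -0.91 and 35 of 99 were higher in direct cDNA, and antisense RNAs a median of -0.86 with 22 of 74, against a median of -0.38 and 1034 of 10661 protein-coding genes.

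**Figure D4:**
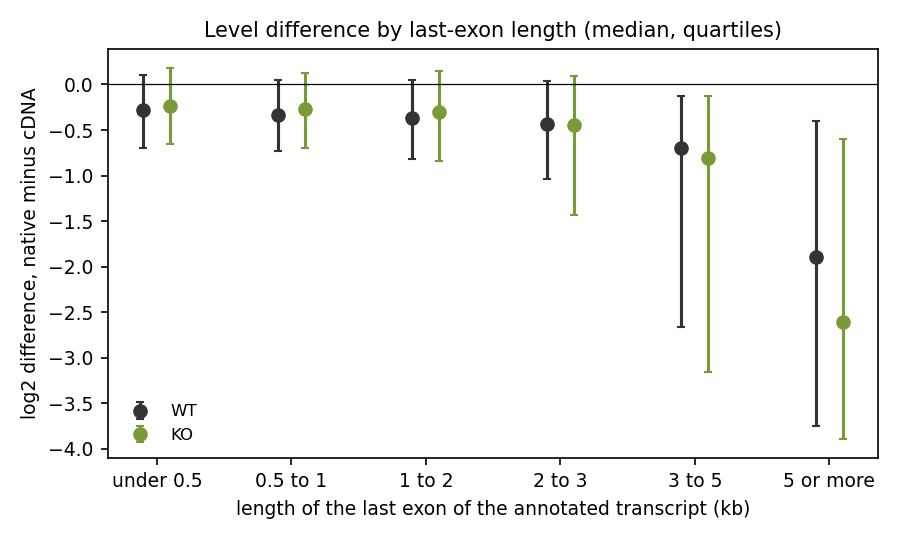
Log2 difference in gene level, native RNA minus direct cDNA (y axis; points are medians, bars are quartiles), by length of the last exon of the annotated transcript in kb (x axis), in WT and KO. The WT median falls from -0.28 under 0.5 kb to -1.89 at 5 kb or more.

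Genes higher in native RNA had a median annotated length of 1835.5 bases, and ribosomal protein genes made up 7 of the 12 that led in both genotypes. Rpl24, of the large ribosomal subunit (ENSMUSG00000098274.7, chromosome 16, 55966275 to 55971435, plus strand), was at 1961 TPM in native RNA and 81.9 in direct cDNA, a log2 difference of 4.57. It was at 1313 and 120 TPM in KO and at 989 ± 78.8 TPM in short reads (SD, n = 3). Rpl30 was at 712 and 56.3 TPM in WT and 634 and 42.9 in KO. Passing 4-fold in KO was part of how these genes were chosen, so it is no support for them.

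Rpl23a was at 2738 TPM in native RNA, 291 in direct cDNA and 2303 ± 300 in short reads (SD, n = 3). Rps12, Rps29, Rpl5 and Rpl12 had native RNA levels from 1025 to 1656 TPM and direct cDNA levels from 103 to 254. Outside the ribosome, the mitochondrial genes Atpif1, an inhibitor of ATP synthase, and Timm17a, of the protein import complex, were among the 12. Atpif1 was at 832 and 162 TPM, and Timm17a at 108 and 21.5. Slc25a26, the S-adenosylmethionine carrier of mitochondria, was at 48.0 TPM in native RNA and 4.15 in direct cDNA, with 4.64 ± 0.730 in short reads (SD, n = 3), and Nop10, of the box H/ACA particles, at 261 and 34.3.

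Lars2, which encodes mitochondrial leucyl-tRNA synthetase, was at 37.8 TPM by its introns in native RNA and at 0 in direct cDNA, whose Lars2 locus held the largest share of deposited TPM in models without an annotated intron. The short reads gave Lars2 10525 ± 2686 TPM (SD, n = 3), so the measures differed in what they counted at this locus.

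Many native RNA higher genes had a direct cDNA model with much sequence outside annotated exons, or none with an annotated intron. In 97 of the 214 (45.3%) the leading direct cDNA transcript lay over 50% outside annotated exons, against 5.53% of all genes compared, and in 85 (39.7%) direct cDNA had no transcript with an annotated intron, against 0.772%. Fabp7 was at 11817 TPM in native RNA and 115 in direct cDNA in WT, but at 4062 and 3913 in KO. The WT direct cDNA model of Fabp7 had 49380 bases, 87.8% of them outside annotated exons, a mean coverage of 97.5 reads and 12439 in its best covered exon. With levels taken from the median coverage of a transcript's exons, the Fabp7 difference was 0.18. Of the 12 named native RNA higher genes, 9 stayed at 4-fold by exon coverage, and Atpif1 (0.30), Timm17a (-0.02) and Slc25a26 (1.30) did not.

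Across the gene lists, cytosolic ribosomal proteins stood highest. Of 34, 29 were above 0 and 7 were 4-fold higher in native RNA, against 1.94% of all genes compared. Rpl30, Rpl5 and Rps29 were among the 7, and 0 were higher in direct cDNA, against 10.3% of all genes. The list median was 0.77, against -0.39 for all genes compared, and 0.94 in KO. It was 1.27 with exon overlap and the median set to 0. Translation factors had a median of -0.11, nuclear-encoded respiratory chain genes -0.11, proteasome subunits 0.01 and chaperones -0.05. Of their 20, 28, 26 and 20 members, 2, 0, 1 and 0 were 4-fold higher in native RNA, against 1.94% of all genes compared. The list of 18 glycolysis genes had a median of 0.40 in WT and -0.19 in KO, with Aldoa as its only member past 4-fold.

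The neuronal, oligodendrocyte lineage and long-transcript lists had the lowest medians. Of 46 genes with long transcripts, 10 were 4-fold higher in direct cDNA, against 10.3% of all genes compared, 7 of the list were at 0 in native RNA, and the median was -0.73. By exon overlap with the median set to 0, 2 of 41 were higher in direct cDNA and the median was -0.24. Map1b, a microtubule protein of neurons, was at 0 by its introns in native RNA, which held a single-exon transcript in its last exon at 19.6 deposited TPM, and at 31.8 TPM in direct cDNA. Dync1h1, the dynein heavy chain, was at 98.1 TPM in native RNA and 46.2 in direct cDNA, but its main native RNA transcript had 3997 bases against 16591 in direct cDNA.

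Neuronal genes had a median of -1.76, with 5 of 12 higher in direct cDNA, against 10.3% of all genes compared. Dcx, which marks migrating neurons, was at 0 in native RNA and 15.6 TPM in direct cDNA, and Elavl3 at 0 and 9.45. Native RNA held single-exon transcripts in the last exons of Dcx and Elavl3, at 10.5 and 7.29 deposited TPM. Stmn1 was at 578 and 399 TPM. Oligodendrocyte lineage genes had a median of -1.15 with 3 of 10 higher in direct cDNA, against the same 10.3%. Among the 3 was Gpr17 at 0 and 38.6 TPM, with a native RNA single-exon transcript at 14.6 deposited TPM. By exon overlap with the median set to 0 these medians were -0.19 and -0.48, and 0 of 9 neuronal and 1 of 8 oligodendrocyte lineage genes were higher in direct cDNA. At a minimum of 20 TPM the neuronal median was -0.24 over 7 genes. In KO the neuronal median was -0.33 over 7 genes.

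Astrocyte genes had 3 of 12 higher in direct cDNA, against 10.3% of all genes compared. By exon overlap with the median set to 0, 0 of 11 were higher in direct cDNA, with a median of -0.07. Among the 3 was Aqp4, the water channel of astrocyte endfeet, at 0 and 10.2 TPM, with a native RNA single-exon transcript at 8.93 deposited TPM. Of this list 4 were above 0, and 1 of them, Gja1 of astrocyte gap junctions, passed 4-fold at 52.2 TPM in native RNA and 2.11 in direct cDNA. Gja1 was at 68.5 and 48.8 TPM in KO, its WT direct cDNA model lay 98.6% outside annotated exons, and by exon coverage its difference was 1.43. Of 21 radial glia and neural progenitor markers, Fabp7 was higher in native RNA and Nes and Sox9 in direct cDNA, with a median of -0.39. By exon overlap with the median set to 0, 0 of 22 were higher in direct cDNA and 1 in native RNA. The median was then 0.06. Nes, the intermediate filament nestin, was at 0 by its introns in native RNA, where its last exon of 5031 bases held a single-exon transcript at 16.2 deposited TPM, at 41.7 TPM in direct cDNA and at 270 ± 18.3 TPM in short reads (SD, n = 3). Nes was also at 0 in KO native RNA and at 229 TPM in KO direct cDNA.

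Of 17 m6A writers, readers and erasers, 3 were higher in direct cDNA, Fto, Igf2bp1 and Zc3h13, against 10.3% of all genes compared, and the median was -0.67. By exon overlap with the median set to 0, 0 of 18 were, with a median of -0.19. Fto, a demethylase, was at 7.95 TPM in native RNA and 69.9 in direct cDNA, and at 0 and 50.0 in KO. Native RNA also held a single-exon Fto transcript in the last exon at 68.0 deposited TPM, which the level by introns leaves out. Among 8 long non-coding RNAs 4 were above 0, with a median of -0.28, and 3 were higher in direct cDNA, against 10.3% of all genes compared. Pantr1 was at 703 TPM in native RNA and 419 in direct cDNA, and Tug1 at 46.7 and 30.5. Xist was at 0 TPM in native RNA, with a single-exon transcript at 3.85 deposited TPM, and at 35.8 in direct cDNA. Sox2ot was at 0 and 14.3 TPM. Among 12 snoRNA host genes, 3 were higher in native RNA and 1 in direct cDNA, against 1.94% and 10.3% of all genes compared. Snhg8 was at 167 TPM in native RNA and 4.79 in direct cDNA, but at 119 and 217 in KO. The WT direct cDNA model of Snhg8 had 25261 bases, 98.5% of them outside annotated exons, and by exon coverage the difference was -0.43, with 1 of the 12 host genes then higher in native RNA.

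**Figure D5:**
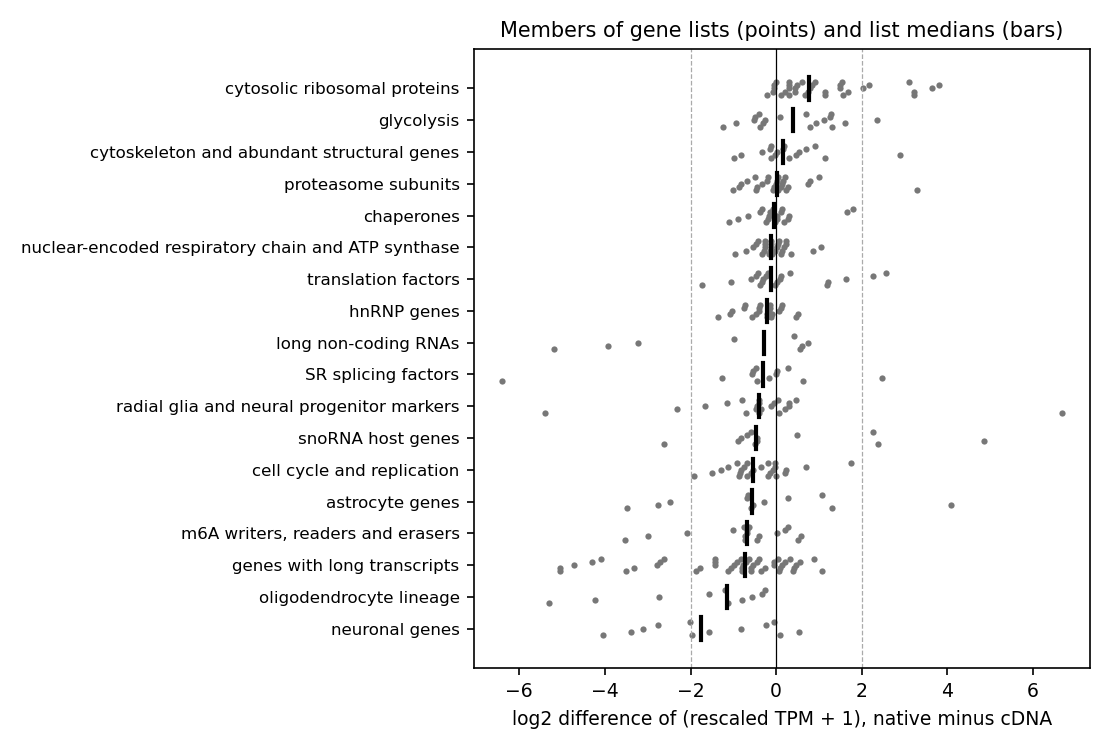
Log2 difference in gene level, native RNA minus direct cDNA (x axis), for each member (points) and the median (bars) of gene lists with 8 or more members compared in WT, ordered by median. Cytosolic ribosomal proteins lie highest with a median of 0.77 and neuronal genes lowest with -1.76; dashed lines mark 4-fold.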

How the data were processed

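Neural progenitor cells were sequenced as native RNA and direct cDNA on nanopore devices, 2 samples of each per genotype, and the authors deposited 1 pooled set of transcript models per chemistry, genotype and assembler. The models came from StringTie 2.0 without an annotation guide, per the file headers, with TPM and read coverage as StringTie wrote them, and from FLAIR without abundance. The submitters' processing notes list minimap2 2.17 and GRCm38. The deposited TPM and estimated counts of 3 standard short-read WT libraries came from kallisto, per the file headers, with totals of 12084507 to 13987929 estimated counts, and gave the short-read levels. The size-separated short-read libraries were not used here.

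Models were compared with GENCODE M21 in Python 3.11.15, numpy 2.4.6 and scipy 1.17.1. A gene's level was the TPM of transcripts with one of its annotated introns on its strand, rescaled to 1000000, and a transcript with introns of several genes counted for each. Genes at 5 or more in either chemistry were compared with a pseudocount of 1, and a log2 difference of 2 counted as 4-fold. With 1 assembly per chemistry there was no test. The procedure was checked on simulated data. No column of per-sample values was left unmapped. Members, the 24 lists and rules were chosen with earlier results of these data known. Named genes were the 12 largest differences each way, at 20 TPM or more, that passed 4-fold in KO too, the 2 highest and 2 lowest of each list and the 6 most abundant chains of 1 chemistry. Mettl14 and the remaining 4-fold list members were named outside that rule, after their values were seen. A few genes picked by it are not reported here but stay in all counts and medians.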

Additional observations from a re-analysis of the deposited data

Results flagged for a closer look

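Given here are 3 genes whose difference between chemistries pointed one way in WT and the other way in KO. They were picked out after their values were seen and are not the only such genes. Of all genes past 4-fold in WT, 12 higher in native RNA and 7 higher in direct cDNA passed 4-fold the other way in KO. A level of 0 below means that no direct cDNA transcript held an annotated intron of the gene. Limd1, which encodes a LIM domain protein, had a log2 difference (native RNA minus direct cDNA) of 6.24 in WT and -1.48 in KO. It was at 74.5 TPM in WT native RNA and listed at 0 in WT direct cDNA, against 80.3 and 225 in KO. The Limd1 gene starts at 123478706 on chromosome 9, inside the Lars2 locus of high direct cDNA TPM, which ended at 123493447 in WT. Naa40, an N-terminal acetyltransferase, had 4.66 in WT and -1.23 in KO, with 24.3 TPM and 0 in WT against 36.4 and 86.8. Vac14, a scaffold of phosphoinositide metabolism, had 4.60 in WT and -2.14 in KO, with 23.3 TPM and 0 in WT against 34.5 and 156. The difference between WT and KO was not tested, since each rests on 1 assembly per chemistry. In the short reads of WT cells Limd1 was at 54.7 ± 18.4 TPM, Naa40 at 29.9 ± 0.0808 and Vac14 at 44.1 ± 1.01 (SD, n = 3).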

How the results depend on the processing

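No paired analysis was possible because both replicates of a chemistry share 1 file, and for the same reason no replicate was left out. Results rest on 1 assembly per chemistry, unequal coverage and annotated introns. Alternatives with a coverage limit, exon coverage or centred exon overlap were chosen after seeing the data. The cause of each shift was not tested.

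Values are given as native RNA and direct cDNA. Genes higher at 4-fold (214 and 1138) were 93 and 406 with a pseudocount of 5, 126 and 370 with a minimum of 20, 8885 and 17 with deposited TPM, 2828 and 319 by exon overlap, 526 for direct cDNA when that was centred, and 116 for native RNA by exon coverage (1704 for direct cDNA). Single-exon shares were 27.8% and 48.4% in FLAIR, 15% and 34.2% weighted by TPM, 9.05% and 10.1% at a coverage of 10 or more, and for direct cDNA 9.49% at 1 TPM or more and 16.8% in as many transcripts as native RNA had. Median lengths (2071 and 2800) were 1934 and 2349 in FLAIR, 1332 and 400 weighted by TPM, 1991 and 2683 in annotated chains, and 2557 for direct cDNA with equal numbers. Median exon numbers (7 and 8) were 8 and 9 in FLAIR and 6 and 2 weighted by TPM. Shared chains were 61.5% and 46.3% in FLAIR, 78.0% and 38.8% when contained chains counted, and 50.7% and 50.7% with equal numbers. Annotated shares of chains of 1 chemistry were 24.4% and 29.6% in FLAIR, 14.7% and 18.2% when absent from both assemblies, and 66.2% and 40.4% when contained in an annotated chain. The other 15 values were within 1.5 times for gene counts, among them 313 and 1501 without a minimum and 287 and 1051 with the median set to 0, and within the counting interval for shares and medians. Weighting by TPM turned the order of median lengths and exon numbers, and deposited TPM and exon overlap that of gene counts. Contained chains turned the order of annotated shares, and equal numbers or 1 TPM or more that of single-exon shares. The cutoff of 1 TPM is in deposited TPM, which is not on 1 scale between the chemistries. At a coverage of 10 or more the single-exon share stayed higher in direct cDNA (9.05% and 10.1%).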
